A study of Homo sapiens with 30 samples.

Results

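The genes described are 30 named genes of cholesterol and fatty acid synthesis, chosen by name and read through the probes that the platform annotation assigns to them. They comprise 16 enzymes of sterol synthesis, 10 enzymes of fatty acid synthesis, elongation, desaturation and activation, and 4 genes of sterol regulation and transport. A probe was matched for 28 of the 30, and 27 of these passed the detection filter among 13488 genes tested, of which 15 are sterol enzymes, 9 fatty acid enzymes and 3 regulators. FDFT1 and ACSL3 were not analysed here, and STARD4, a sterol carrier, was detected on 1 of 30 arrays and was not tested. Total RNA came from H9, an established line of human embryonic stem cells, at day 1 and day 3 of differentiation and then at days 5, 7, 9 and 11 in an arm labelled NSB and an arm labelled PIP, the latter described in the labels as placode. Each of the 10 groups holds 3 arrays that the labels call biological replicates, so that day 1 and day 3 precede the division into arms and all groups share the same line. The labels give no agents or doses. As background, NSB usually stands for Noggin, a BMP antagonist, with a chemical blocker of the activin and Nodal receptors, which turns stem cells into neural ectoderm, and PIP for a placode induction protocol that begins in the same way and then withdraws the BMP antagonist. The groups therefore model 1 cell line, and whether the replicates came from separate thaws or plates is not stated.

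Cholesterol is built from acetyl-CoA through mevalonate, isoprenoid units, squalene and lanosterol, and fatty acids from the same acetyl-CoA through malonyl-CoA and palmitate, which elongases and desaturases then modify. The transcription factor encoded by SREBF2 drives the sterol enzymes and that encoded by SREBF1 drives mainly the fatty acid enzymes, and when sterols are plentiful the protein of INSIG1 holds both precursors in the endoplasmic reticulum. Dividing and differentiating cells of the early nervous system take much of their cholesterol from their own synthesis, and inherited defects of the late enzymes, such as those of DHCR7 and NSDHL, disturb development.

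Before normalization the median bead intensity of an array was 45.4 to 74.7, and 34.0% to 37.7% of probes were detected at a detection p-value under 0.05. Arrays of a group correlated at 0.988 to 0.998 over the genes tested. Between replicates the median standard deviation of the tested members ranged from 0.0459 (day 3) to 0.179 (NSB, day 7) on the log2 scale. On 9 arrays (those of day 3 and of both arms at day 5) a pair of sample codes is given, and whether these mark pooled RNA is not stated. The 6 arrays of day 9 and those of day 11 stood at opposite ends of the third principal component, which held 9.92% of the variance. In summed log2 units the day 9 scores ran from 20.7 to 27, those of day 11 from -24.6 to -22.2 and those of the other groups from -16.1 to 12.7. On the second component, with 18% of the variance, the day 1 arrays lay furthest out, at -41.6 to -40.1. POU5F1, a factor of pluripotent cells, fell from 12.26 at day 1 to 7.00 in NSB and 6.82 in PIP at day 11, PAX6, a factor of neural ectoderm, was detected on no array of day 1 and averaged 10.28 and 10.31 at day 11, and TFAP2A, a factor of non-neural ectoderm, averaged 11.28 in PIP against 5.92 in NSB at day 11. LIN28A, another gene of pluripotent cells, stayed high, at 12.96 at day 1 and 13.12 and 13.23 at day 11. Each of the 27 tested members differed somewhere among the 10 groups by the moderated F test, as did 90.4% of all genes. All levels are log2 values of normalized intensity, differences between groups of 3 arrays are on the log2 scale and are followed by ± their standard error from limma, and a gene is called changed at a Benjamini-Hochberg adjusted p under 0.05 over all genes tested. Intensities of different probes are not comparable in level, so each gene is set only against itself. Precision is limited by the number of arrays, and since an offset precedes the log transform, folds of dim probes come out too small. In bulk RNA, fewer cells of a type and less RNA in each cell cannot be told apart.

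**Figure D1:**
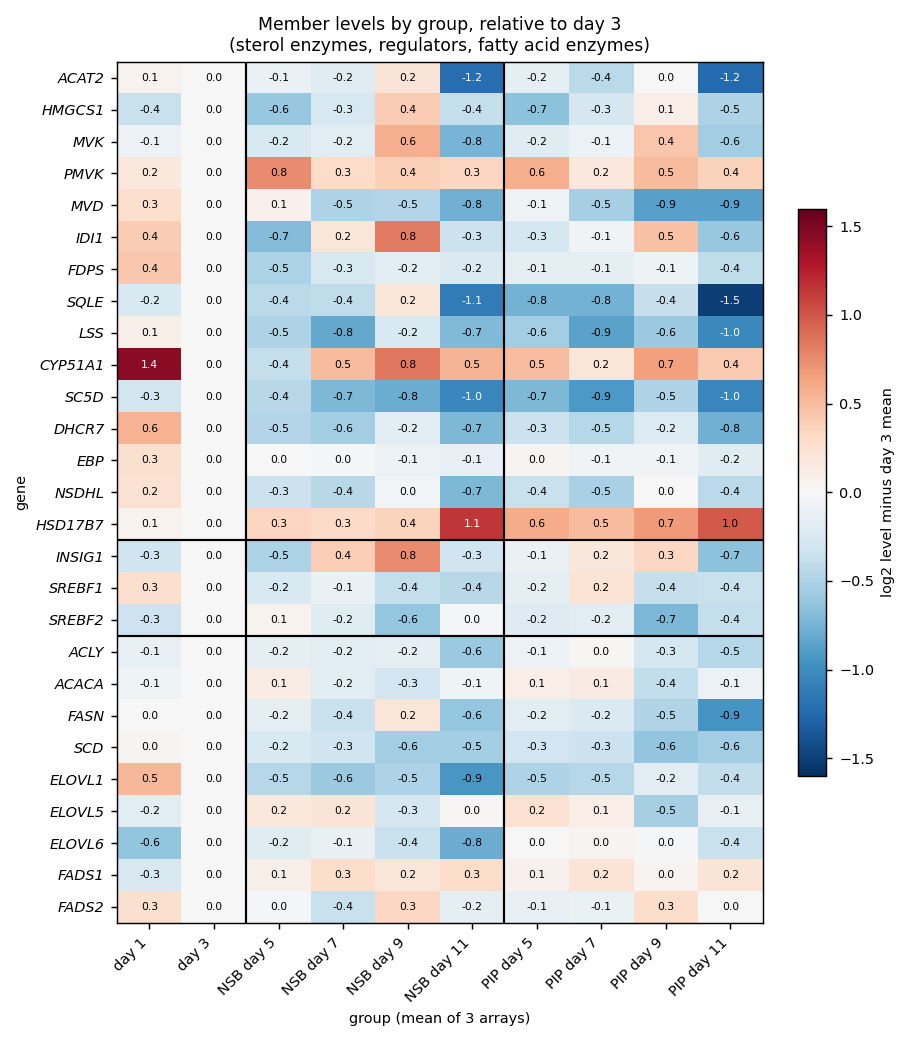
Group mean of each of the 27 tested members minus its day 3 mean, on the log2 scale (colour and printed value), with genes in rows by family and pathway order and the 10 groups in columns. The day 9 columns are higher than those of day 7 and day 11 for most sterol enzymes in both arms, and ELOVL5 and SREBF2 are lower at day 9.

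Most sterol enzymes stood highest of the later days at day 9, and most fell from day 9 to day 11, in both arms, whereas some fatty acid enzymes rose and others fell at day 9. From day 7 to day 9, 9 of 15 sterol enzymes rose and 0 fell in NSB, with a median difference of 0.37 against -0.01 over all genes, where 47.8% of all genes tested changed, 23.0% up and 24.7% down. In PIP 10 of 15 rose and 0 fell, with a median of 0.38 against 0.00 over all genes, where 46.4% of all genes changed, 22.5% up and 23.9% down. The 8 that rose in both arms were ACAT2, HMGCS1, MVK, IDI1, SQLE, LSS, CYP51A1 and NSDHL, beside 15.7% of all genes with a rise in both. DHCR7 rose in NSB, and PMVK and SC5D rose in PIP. Of the 9 fatty acid enzymes 2 rose and 2 fell in NSB, with a median of -0.08, and 2 rose and 5 fell in PIP, with a median of -0.25. Over the 4 days 5 to 11, 10 of 15 sterol enzymes had their highest group mean at day 9 in NSB, as did 27% of all genes, and 10 of 15 in PIP, as did 28.5% of all genes. The same held for 3 of the 9 fatty acid enzymes in NSB and 2 in PIP. Scaling each array to the median of all probes, in place of quantile normalization, left 9 sterol enzymes higher in NSB but only 3 higher and 1 lower in PIP, whereas scaling to the probes detected on every array gave 9 and 10 higher.

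Day and whatever was done on that day cannot be told apart, since each day of an arm is 1 group of arrays. Markers of other cells moved between these days as well, and their part in the results was not tested. The summed intensity of the 6 fibroblast and mesenchyme markers was 1300 to 1500 in NSB at day 7 and 1460 to 1540 at day 9, and 915 to 962 and 1020 to 1120 in PIP. Among them the mean of COL1A1 went up (8.27 to 9.43 in NSB, 7.57 to 8.31 in PIP) and that of PDGFRB down (7.78 to 6.94 and 7.73 to 7.26). The sum of MBP and MAG, genes of myelin-making glia, which make much cholesterol, was 305 to 349 in NSB at day 7 and 111 to 129 at day 9, and 393 to 459 and 275 to 299 in PIP. The mean of MBP went down (8.12 to 6.10 in NSB, 8.59 to 7.84 in PIP), whereas that of MAG went up (5.59 to 5.72 and 5.48 to 5.94). The endothelial sum (4 genes) went from 691 to 792 down to 537 to 587 in NSB, and from 398 to 439 down to 282 to 297 in PIP. TEK carried this fall, with means of 9.32 and 8.80 in NSB and 8.30 and 7.18 in PIP. In PIP the means of KDR (5.58 to 6.03) and CDH5 (4.84 to 5.48) went up, and PECAM1 was detected on 2 of 30 arrays. These sums therefore do not show that a cell type gained or declined as a whole. The hepatocyte and endoderm sum (5 genes) was 150 to 156 and 172 to 183 in NSB and 145 to 147 and 154 to 172 in PIP, with FOXA2 and SOX17 detected on 0 of 30 arrays.

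**Figure D2:**
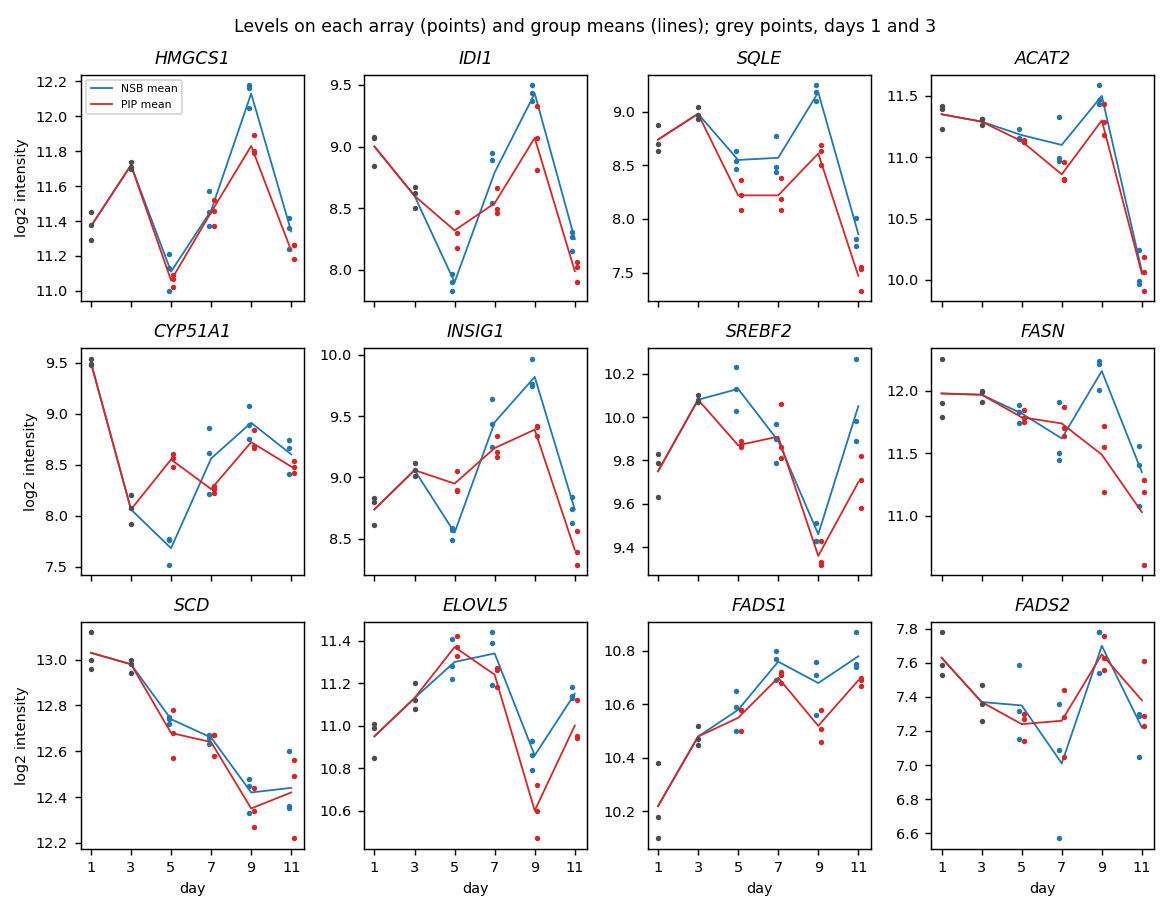
Log2 level on each of the 30 arrays (points) and the group mean (lines, by arm) against day for 12 members, with day 1 and day 3 shared by both arms. The day 9 points of HMGCS1, IDI1, SQLE and ACAT2 lie above those of days 7 and 11 in both arms, and those of SCD and ELOVL5 lie below those of day 7.

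The step was seen from the start of the mevalonate pathway onward. HMGCS1, the cytosolic HMG-CoA synthase, was at 11.45, 11.37 and 11.57 in NSB at day 7, at 12.18, 12.05 and 12.16 at day 9, and at 11.24, 11.36 and 11.42 at day 11. The day 9 arrays lay above all arrays of the neighbouring days. Its rise was 0.67 ± 0.07, 1.59-fold (adjusted p = 1.73e-08, limma), and its fall to day 11 was -0.79 ± 0.07 (adjusted p = 6.23e-10). In PIP the 3 arrays were at 11.52, 11.37 and 11.46 at day 7, 11.89, 11.79 and 11.80 at day 9 and 11.18, 11.26 and 11.26 at day 11, again without overlap, a rise of 0.38 ± 0.07 (adjusted p = 1e-04) and a fall of -0.59 ± 0.07. ACAT2, the cytosolic acetoacetyl-CoA thiolase that feeds HMG-CoA synthase, rose by 0.40 ± 0.09 in NSB and 0.44 ± 0.09 in PIP. It then fell by 1.43 ± 0.09 in NSB, from 11.47, 11.43 and 11.59 to 9.97, 9.99 and 10.24, and by 1.25 ± 0.09 in PIP, from 11.43, 11.18 and 11.29 to 10.06, 9.91 and 10.19. These falls, 2.69-fold and 2.37-fold (adjusted p = 9.03e-13 and 1.88e-11), took its level below that of every earlier array.

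MVK, mevalonate kinase, was at 6.26, 6.29 and 6.21 in NSB at day 7 and at 7.02, 7.00 and 7.01 at day 9. Its rise of 0.76 ± 0.12 was the largest among the sterol enzymes in NSB (adjusted p = 7.68e-06). At day 11 it stood at 6.06, 5.70 and 5.27, a fall of 1.33 ± 0.12, and its probe was detected on 2 of these 3 arrays. In PIP MVK rose by 0.54 ± 0.12 to 6.91, 6.79 and 6.91, and fell by 1.00 ± 0.12 to 5.86, 5.96 and 5.79. IDI1, the isomerase of the isoprenoid unit, was at 8.54, 8.89 and 8.95 in NSB at day 7, at 9.50, 9.37 and 9.43 at day 9 and at 8.27, 8.15 and 8.31 at day 11. Both steps were without overlap, 0.64 ± 0.11 and -1.19 ± 0.11 (adjusted p = 2.80e-05 and 8.78e-10). In PIP IDI1 rose by 0.53 ± 0.11 to 9.33, 8.81 and 9.07 and fell by 1.08 ± 0.11 to 7.90, 8.02 and 8.06. PMVK, the next kinase, rose in PIP (0.34 ± 0.12) and its difference in NSB was 0.08 ± 0.12. The PMVK call in PIP ended without PIP day 7 replicate 1 or PIP day 9 replicate 1 (adjusted p = 0.119 and 0.0899). MVD, the decarboxylase that ends the mevalonate steps, and FDPS, the farnesyl diphosphate synthase, were not called between day 7 and day 9 in either arm.

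In the squalene to cholesterol segment, SQLE, the squalene epoxidase, was at 8.44, 8.77 and 8.48 in NSB at day 7, at 9.18, 9.10 and 9.25 at day 9 and at 8.01, 7.81 and 7.75 at day 11. The rise was 0.61 ± 0.10 and the fall -1.32 ± 0.10 (adjusted p = 1.16e-05 and 1.25e-11), with no overlap between days. In PIP SQLE rose by 0.39 ± 0.10 to 8.63, 8.50 and 8.69 and fell by 1.14 ± 0.10 to 7.55, 7.33 and 7.53, its lowest level in the series. LSS, the lanosterol synthase, rose by 0.57 ± 0.09 in NSB and 0.27 ± 0.09 in PIP by its brightest probe, and of its other probes 1 gave -0.13 ± 0.12 and 0.07 ± 0.12 and the other 0.26 ± 0.13 and 0.20 ± 0.13, none of them called. The LSS rise in PIP was also lost without PIP day 7 replicate 2 (adjusted p = 0.0720). CYP51A1, the lanosterol demethylase, rose by 0.34 ± 0.12 in NSB and by 0.47 ± 0.12 in PIP, and the NSB call ended without NSB day 7 replicate 2 or NSB day 9 replicate 3 (adjusted p = 0.208 and 0.103). NSDHL, a later demethylating enzyme, rose by 0.41 ± 0.08 and 0.53 ± 0.08. EBP, the sterol isomerase, had group means of 9.31 to 9.54 from day 3 on and was not called at any step between days 5 and 11.

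**Figure D3:**
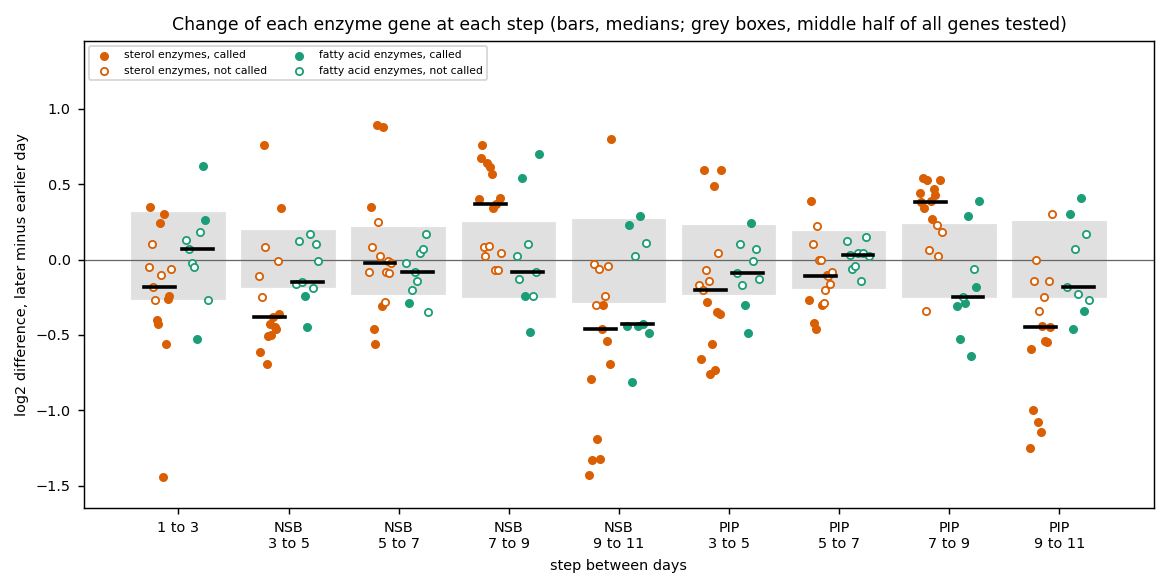
Log2 difference, later minus earlier day, of each sterol and fatty acid enzyme (points, filled where called) at each step, with the family median (bars) and the range between the quartiles of all genes tested (grey boxes). At the step from day 7 to day 9 the sterol medians are 0.37 and 0.38 and the fatty acid medians -0.08 and -0.25.

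Promoter windows of these genes are shown because 8 of the 15 sterol enzymes rose at day 9 in both arms. RefSeq windows (GRCh38.p14), from 250 bases before to 50 after each gene's start, were matched for 26 of the 30 members, in 35 windows. ACAT2, FASN, FDFT1 and SQLE have no window here. In each sequence below, 5′ to 3′ on the gene's strand, the capitals mark the CCAAT box (CCAAT, or ATTGG on the other strand) and, in SREBF2, the sterol regulatory element (TCACNCCAC).
HMGCS1 (chr5:43313363-43313662, minus strand): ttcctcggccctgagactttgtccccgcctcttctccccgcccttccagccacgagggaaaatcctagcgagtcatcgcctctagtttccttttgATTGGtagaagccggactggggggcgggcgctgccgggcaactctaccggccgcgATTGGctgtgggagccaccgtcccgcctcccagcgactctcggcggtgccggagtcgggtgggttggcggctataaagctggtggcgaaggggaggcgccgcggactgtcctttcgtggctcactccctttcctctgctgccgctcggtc
IDI1 (chr10:1048837-1049136, minus strand): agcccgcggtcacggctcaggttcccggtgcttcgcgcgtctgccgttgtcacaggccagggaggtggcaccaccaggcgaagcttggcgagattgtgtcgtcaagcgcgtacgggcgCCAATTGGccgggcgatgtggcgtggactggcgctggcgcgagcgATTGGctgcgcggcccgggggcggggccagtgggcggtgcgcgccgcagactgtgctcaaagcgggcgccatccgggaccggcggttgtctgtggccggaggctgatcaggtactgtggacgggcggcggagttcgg
INSIG1 (chr7:155297628-155297927, plus strand): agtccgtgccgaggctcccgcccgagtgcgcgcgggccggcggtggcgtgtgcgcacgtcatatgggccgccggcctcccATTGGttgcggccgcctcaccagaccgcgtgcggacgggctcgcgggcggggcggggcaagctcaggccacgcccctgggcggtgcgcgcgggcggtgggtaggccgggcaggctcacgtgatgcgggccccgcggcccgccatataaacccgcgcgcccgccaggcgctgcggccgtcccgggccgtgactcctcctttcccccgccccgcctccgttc
SREBF2 (chr22:41832855-41833154, plus strand): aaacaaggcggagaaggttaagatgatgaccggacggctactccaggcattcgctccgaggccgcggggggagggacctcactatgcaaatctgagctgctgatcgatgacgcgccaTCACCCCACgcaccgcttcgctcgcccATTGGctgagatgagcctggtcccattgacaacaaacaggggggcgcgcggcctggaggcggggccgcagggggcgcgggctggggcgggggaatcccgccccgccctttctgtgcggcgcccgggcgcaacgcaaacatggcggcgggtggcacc
FADS2 (chr11:61816154-61816453, plus strand): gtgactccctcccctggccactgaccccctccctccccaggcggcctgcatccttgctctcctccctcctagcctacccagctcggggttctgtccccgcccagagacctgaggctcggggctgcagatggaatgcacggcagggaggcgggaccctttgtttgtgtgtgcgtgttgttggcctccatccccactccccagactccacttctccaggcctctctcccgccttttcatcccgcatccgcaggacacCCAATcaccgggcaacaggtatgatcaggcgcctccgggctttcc
FADS1 (chr11:61816954-61817253, minus strand): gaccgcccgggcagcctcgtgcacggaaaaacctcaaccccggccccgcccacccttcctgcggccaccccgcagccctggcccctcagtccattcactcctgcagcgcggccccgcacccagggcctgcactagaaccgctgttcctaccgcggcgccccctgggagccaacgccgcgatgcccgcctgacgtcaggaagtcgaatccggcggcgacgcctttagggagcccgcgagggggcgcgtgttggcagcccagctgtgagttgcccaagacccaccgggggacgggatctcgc
HMGCS1 and IDI1 rose at day 9 in both arms, INSIG1 and SREBF2 encode the feedback loop, and FADS2 and FADS1 are neighbouring desaturase genes read on opposite strands, of which FADS2 was called higher at day 9 in both arms.

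A CCAAT box, searched on both strands, was held by 80.8% of the members with a window, by 84.6% of the sterol enzymes (11 of 13), by 77.8% of the fatty acid enzymes (7 of 9) and by 39.7% of all 27305 genes with a window. A GC box (GGGCGG) was held by 92.3% of the members against 48.3% of all genes, and an E-box (CACGTG) by 15.4% against 8.77%. The letters TCACNCCAC of the sterol element were held by SREBF2 alone among the members, at position -133 from its start, and by 1.39% of all genes. Other spellings of the element were not searched, so the other members are not shown to lack it. The HMGCS1 window holds 2 CCAAT boxes and the IDI1 window 3, of which a pair overlap on opposite strands, and the FADS1 window holds none. HMGCS1, IDI1 and FADS2 have further windows that are not printed. These matches describe letters in a window and are not shown to be bound.

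Among the fatty acid enzymes, the genes that rose and fell at day 9 stood side by side in the pathway. FADS2, the desaturase that starts the synthesis of long polyunsaturated fatty acids, was the only fatty acid enzyme called higher in both arms. It was at 7.36, 6.57 and 7.09 in NSB at day 7 and at 7.78, 7.54 and 7.78 at day 9, a rise of 0.70 ± 0.15 without overlap (adjusted p = 2.66e-04). In PIP it went from 7.05, 7.28 and 7.44 to 7.56, 7.63 and 7.76 (0.39 ± 0.15, adjusted p = 0.0301), a call lost without PIP day 7 replicate 1 (adjusted p = 0.161) or any of 3 other arrays. FADS1, its neighbour and the desaturase of a later step, differed by -0.08 ± 0.07 in NSB and fell by 0.18 ± 0.07 in PIP. The FADS1 call was lost without any of 5 arrays, and leaving out PIP day 9 replicate 1 gave an adjusted p of 0.142. FASN, the fatty acid synthase, parted the arms. In NSB it went from 11.91, 11.45 and 11.50 to 12.24, 12.01 and 12.22, a rise of 0.54 ± 0.16 (adjusted p = 5.44e-03). In PIP it went from 11.70, 11.64 and 11.87 to 11.19, 11.55 and 11.72, a difference of -0.25 ± 0.16 that was not called.

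ELOVL5, an elongase of polyunsaturated fatty acids, fell in both arms, from 11.19, 11.39 and 11.44 to 10.93, 10.86 and 10.79 in NSB (-0.48 ± 0.08, adjusted p = 1.35e-05) and from 11.27, 11.18 and 11.26 to 10.72, 10.47 and 10.60 in PIP (-0.64 ± 0.08, adjusted p = 1.90e-07). The day 7 and day 9 arrays did not overlap in either arm. SCD, the stearoyl-CoA desaturase, fell by 0.24 ± 0.08 in NSB, from 12.67, 12.66 and 12.63 to 12.45, 12.33 and 12.48, and by 0.29 ± 0.08 in PIP. The SCD call in NSB ended without NSB day 9 replicate 2 (adjusted p = 0.102). Under median scaling over all probes neither NSB call was made, with ELOVL5 at -0.35 (adjusted p = 0.0517) and SCD at -0.13 (adjusted p = 0.463), while both remained called in PIP. In PIP ACLY, which makes cytosolic acetyl-CoA for both pathways, fell by 0.31 ± 0.10 and ACACA, the acetyl-CoA carboxylase, by 0.53 ± 0.09. ELOVL1, an elongase of very long chains, rose by 0.29 ± 0.11. The ACACA fall was not seen with its other probe (0.23 ± 0.16, not called), the ACLY call ended without PIP day 7 replicate 1 or PIP day 9 replicate 1, and the ELOVL1 call ended without any of 4 arrays.

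Both families can be summarized array by array by the median over their genes of the level minus the gene's mean. The sterol median minus the fatty acid median was -0.08, -0.11 and 0.02 on the NSB arrays of day 7, 0.37, 0.37 and 0.10 at day 9 and -0.15, -0.05 and -0.07 at day 11. In PIP it was -0.27, -0.26 and -0.20, then 0.47, 0.19 and 0.12, and then -0.39, -0.22 and -0.16. The day 9 arrays were above those of day 7 and day 11 in both arms. The day 1 arrays, at 0.35, 0.13 and 0.46, overlapped with them, and the day 3 arrays, at 0.06, 0.08 and 0.03, lay just below the lowest day 9 values. The day 9 group means were 0.28 ± 0.154 in NSB and 0.26 ± 0.184 in PIP (SD, n = 3). These are values of the listed genes, described without a test.

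The regulators did not follow the sterol enzymes alike. INSIG1, whose protein retains the sterol sensor, was at 9.25, 9.64 and 9.44 in NSB at day 7, 9.76, 9.75 and 9.97 at day 9 and 8.84, 8.74 and 8.63 at day 11. It rose by 0.38 ± 0.09 and fell by 1.09 ± 0.09 (adjusted p = 1.30e-03 and 1.23e-10), without overlap at either step. In PIP its difference from day 7 to day 9 was 0.15 ± 0.09, not called, and it fell by 0.98 ± 0.09 to day 11. A dimmer second probe of INSIG1 was called in the same direction at these 3 steps. SREBF2 went the other way, from 9.90, 9.97 and 9.79 in NSB at day 7 to 9.43, 9.43 and 9.51 at day 9 and 10.27, 9.89 and 9.98 at day 11. Its fall of 0.43 ± 0.09 and rise of 0.59 ± 0.09 passed the test (adjusted p = 2.12e-04 and 3.06e-06), as did the fall of 0.55 ± 0.09 and the rise of 0.34 ± 0.09 in PIP. The day 9 arrays of SREBF2 lay below all of its other 24 arrays. SREBF1 fell from day 7 to day 9 by 0.58 ± 0.10 in PIP and by 0.27 ± 0.10 in NSB, the latter call being lost without any of 3 arrays (adjusted p 0.0912 to 0.108). Under median scaling over all probes the SREBF1 and SREBF2 falls in NSB were -0.14 and -0.30 and were not called, nor were the SREBF2 rises to day 11, at 0.07 in NSB and 0.35 in PIP.

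From day 9 to day 11, 9 of 15 sterol enzymes fell and 1 rose in NSB, with a median of -0.46 against -0.02 over all genes, where 51.1% of all genes changed, 24.6% up and 26.6% down. In PIP 9 fell and 0 rose, with a median of -0.45 against -0.01, where 47.6% of all genes changed, 23.9% up and 23.7% down. The 1 that rose in NSB was HSD17B7, by its brightest probe (0.80), whereas its other probe was called lower (-1.10 ± 0.16). The 8 that fell in both arms were ACAT2, HMGCS1, MVK, IDI1, SQLE, LSS, DHCR7 and NSDHL, and 18% of all genes fell in both. The LSS falls rest on its brightest probe. Of its other probes 1 gave -0.07 ± 0.13 in NSB and -0.02 ± 0.13 in PIP and the other 0.18 ± 0.12 and -0.19 ± 0.12, none of them called. DHCR7, the enzyme of the last step to cholesterol by its route, fell by 0.54 ± 0.10 and 0.55 ± 0.10. Of the 9 fatty acid enzymes 5 fell and 2 rose in NSB, with a median of -0.43, and 2 fell and 2 rose in PIP, with a median of -0.18. FASN and ELOVL6 fell in both arms, FASN by 0.81 ± 0.16 and 0.46 ± 0.16 and ELOVL6, which elongates palmitate, by 0.43 ± 0.12 and 0.34 ± 0.12. The PIP falls of FASN and ELOVL6 were lost without PIP day 11 replicate 1 (adjusted p = 0.195) and PIP day 9 replicate 2 (adjusted p = 0.111), respectively. ELOVL5 and ACACA rose in both arms, by 0.29 ± 0.08 and 0.23 ± 0.09 in NSB and by 0.41 ± 0.08 and 0.30 ± 0.09 in PIP, but both were negative in NSB (-0.30 and -0.31) under median scaling over all probes. The other ACACA probe gave -0.37 ± 0.16 in NSB and -0.12 ± 0.16 in PIP, neither called, so the direction of ACACA is not settled. The NSB call of ACACA also ended without any of 4 arrays (NSB day 9 replicate 2 or 3, NSB day 11 replicate 1 or 3, adjusted p 0.0602 to 0.166) and the PIP call without PIP day 11 replicate 2 (adjusted p = 0.0847). Median scaling over all probes shifted the median of all genes by -0.33 in this NSB comparison. Under it 14 sterol enzymes fell and 0 rose in NSB and 9 fell and 0 rose in PIP, and 7 fatty acid enzymes fell and 0 rose in NSB and 1 fell and 0 rose in PIP. The summed intensity of the 6 fibroblast and mesenchyme markers went from 1460 to 1540 up to 2060 to 2350 in NSB and from 1020 to 1120 up to 1660 to 2110 in PIP. That of 4 endothelial markers went from 537 to 587 down to 290 to 419 and from 282 to 297 down to 174 to 195, and that of MBP and MAG from 111 to 129 up to 176 to 218 and from 275 to 299 up to 399 to 409. Single markers differed in direction. The mean of PDGFRB went up (6.94 to 9.20 in NSB, 7.26 to 8.69 in PIP) and that of COL1A1 down (9.43 to 8.99 and 8.31 to 7.80). KDR went up in NSB (5.61 to 5.71), against the endothelial sum, and MAG down in PIP (5.94 to 5.62). The hepatocyte and endoderm sum was 172 to 183 and then 157 to 172 in NSB, and 154 to 172 and then 147 to 162 in PIP. The part of these cell types in the results was not tested. The steps into and out of day 9 share the day 9 arrays, so a shift of those arrays enters both with opposite signs.

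Set directly against day 7, which uses no day 9 array in the difference, day 11 showed 6 of 15 sterol enzymes lower and 1 higher in NSB, where 44.1% of all genes differed, 19.7% higher and 24.4% lower, and 6 lower and 1 higher in PIP, where 38.7% of all genes differed, 18.8% higher and 19.9% lower. The 1 higher was HSD17B7 in each arm, by its brightest probe. The mean of its other probe was lower at day 11, 4.91 against 5.26 in NSB and 5.06 against 5.47 in PIP. The fatty acid enzymes were lower in 4 of 9 in NSB and 5 of 9 in PIP, with 0 higher. The medians were -0.17 for sterol and -0.22 for fatty acid enzymes in NSB and -0.21 and -0.22 in PIP, against -0.02 over all genes in each arm, so that the families were close over this longer interval. ACAT2 (-1.03 ± 0.09 and -0.81 ± 0.09), SQLE (-0.71 ± 0.10 and -0.74 ± 0.10), IDI1 (-0.55 ± 0.11 in each) and MVK (-0.58 ± 0.12 and -0.46 ± 0.12) fell in both arms. This comparison was added after the day 9 values were seen, and with the 6 day 9 arrays left out of the fit the sterol counts were 6 and 7 lower and the fatty acid counts 4 and 4.

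Between day 3 and day 11, more members fell than rose in each arm. In NSB 10 of 15 sterol enzymes fell and 3 rose, where 66.0% of all genes changed, 31.3% up and 34.7% down, and 5 of 9 fatty acid enzymes fell and 1 rose. In PIP 11 sterol enzymes fell and 3 rose, where 62.4% of all genes changed, 30.4% up and 32% down, and 5 fatty acid enzymes fell and 1 rose. The medians were -0.71 and -0.56 for the sterol enzymes, -0.54 and -0.35 for the fatty acid enzymes and -0.01 for all genes in each arm. Both comparisons use the same day 3 arrays. Under median scaling over all probes 12 sterol enzymes fell and 1 rose in each arm, and 9 fatty acid enzymes fell in NSB and 7 in PIP, with 0 rising. That scaling shifted the median of all genes by -0.43 in NSB and -0.16 in PIP. Of all genes called under it only 17.8% and 32.6% were higher, so these counts follow a general shift. Sums of markers of other cell types were lower too, those of fibroblasts and mesenchyme from 3900 to 4180 down to 2060 to 2350 in NSB and 1660 to 2110 in PIP, and those of endothelium from 832 to 938 down to 290 to 419 and 174 to 195. The sum of MBP and MAG went from 488 to 523 down to 176 to 218 and 399 to 409, and that of the hepatocyte and endoderm markers from 261 to 273 down to 157 to 172 and 147 to 162. COL1A1 and COL1A2 carried the lower fibroblast sum, with means of 10.89 and 10.9 at day 3, 8.99 and 9.98 in NSB and 7.8 and 10.09 in PIP. Other markers went the other way, with PDGFRB at a mean of 7.15 at day 3 and 9.20 in NSB and 8.69 in PIP at day 11. COL3A1 went from 4.95 to 5.77 in NSB and 6.07 in PIP. In PIP DCN went from 5.01 to 6.73 and LUM from 4.55 to 5.38. The fibroblast sum therefore does not show that the cell type declined as a whole. MAG in NSB went from 5.74 to 5.89. The part of these cell types in the results was not tested. SQLE was at 9.04, 8.97 and 8.93 at day 3, at 8.01, 7.81 and 7.75 in NSB and at 7.55, 7.33 and 7.53 in PIP at day 11. These values did not overlap, and SQLE fell 2.18-fold in NSB (-1.12 ± 0.10, adjusted p = 9.06e-11) and 2.84-fold in PIP (-1.51 ± 0.10, adjusted p = 2.04e-13). ACAT2, at 11.31, 11.31 and 11.26 at day 3, fell by 1.23 ± 0.09 and 1.24 ± 0.09 to the day 11 values given above.

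SC5D, a late sterol desaturase, fell from 10.93, 10.98 and 10.92 at day 3 to 9.73, 9.88 and 10.09 in NSB and 9.92, 9.86 and 9.94 in PIP, without overlap (-1.04 ± 0.12 in each arm). Its other probe, detected on 7 arrays, was not called in NSB (-0.13 ± 0.11) and fell in PIP (-0.42 ± 0.11). Of the members that rose, CYP51A1 went from 8.20, 8.07 and 7.92 to 8.41, 8.66 and 8.74 in NSB and 8.48, 8.42 and 8.54 in PIP (0.54 ± 0.12 and 0.42 ± 0.12). PMVK went from 7.22, 7.09 and 7.13 to 7.57, 7.51 and 7.43 in NSB and 7.52, 7.60 and 7.44 in PIP (0.35 ± 0.12 and 0.37 ± 0.12). The arrays of these genes did not overlap with day 3, but under median scaling over all probes, which shifted the median of all genes by -0.43 in NSB, the NSB values of CYP51A1 and PMVK were -0.09 and -0.19. HSD17B7, a late reductase of the pathway, rose from 11.41, 11.34 and 11.42 to 12.67, 12.48 and 12.48 in NSB and 12.43, 12.39 and 12.29 in PIP by its brightest probe (1.15 ± 0.13 and 0.98 ± 0.13). Its other probe, detected on 24 arrays, fell by 1.29 ± 0.16 and 1.14 ± 0.16, so the direction for HSD17B7 is not settled. Of the fatty acid enzymes, ELOVL1, ELOVL6, FASN, ACLY and SCD fell in both arms, the largest fall being that of FASN in PIP (-0.94 ± 0.16) and of ELOVL1 in NSB (-0.93 ± 0.11). The ELOVL6 call in PIP (-0.35 ± 0.12) was lost without PIP day 11 replicate 2 (adjusted p = 0.0604). FADS1 alone rose in both (0.30 ± 0.07 and 0.21 ± 0.07), with values of -0.40 and -0.12 under median scaling over all probes, and its PIP call was lost without day 3 replicate 2 (adjusted p = 0.0523).

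Between day 1 and day 3, before the arms divide, members moved in both directions. Of the 15 sterol enzymes 3 rose and 6 fell, with a median of -0.18 against 0.01 over all genes, and of the 9 fatty acid enzymes 2 rose and 1 fell, with a median of 0.07, where 54.4% of all genes changed, 29.0% up and 25.4% down. CYP51A1 had the largest change, from 9.54, 9.48 and 9.49 to 8.20, 8.07 and 7.92, far from overlap and 2.71-fold lower (-1.44 ± 0.12, adjusted p = 2.93e-11). DHCR7 fell from 9.54, 9.40 and 9.71 to 9.01, 8.99 and 8.96 (-0.56 ± 0.10) and ELOVL1 from 7.32, 7.43 and 7.56 to 7.03, 6.88 and 6.79 (-0.53 ± 0.11), both without overlap. ELOVL6 rose from 9.03, 9.08 and 8.62 to 9.51, 9.51 and 9.59 (0.62 ± 0.12, adjusted p = 5.03e-05). HMGCS1 rose from 11.29, 11.45 and 11.38 to 11.74, 11.70 and 11.71 (0.35 ± 0.07), and SREBF2 from 9.79, 9.63 and 9.83 to 10.10, 10.07 and 10.08 (0.33 ± 0.09). The day 3 arrays lay above the day 1 arrays for each of these 3 genes. INSIG1 rose by its brightest probe (0.32 ± 0.09) and fell by its other (-0.40 ± 0.12), so it has no settled direction here.

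The summed intensity of the 5 hepatocyte and endoderm markers was 1560 to 1980 at day 1 and 261 to 273 at day 3. AFP, a fetal serum protein gene, carried this fall, with means of 10.68 and then 6.93. The mean of APOA1 went up, from 5.40 to 5.85. FOXA2 and SOX17 were detected on no array and ALB on 0 and 2 of 3. The fibroblast and mesenchyme sum went from 1620 to 1830 up to 3900 to 4180, with LUM detected on no array of either day. The mean of PDGFRB went down, from 7.68 to 7.15. The part of these cell types in the results was not tested. Of the 15 calls 10 held when any 1 array was left out, and those of SQLE, SC5D, EBP, FDPS and SREBF1 did not. Median scaling over all probes, which shifted the median of all genes by 0.20, also ended the falls of IDI1, FDPS, DHCR7, EBP, NSDHL and ELOVL1, and put SREBF1 at 0.05. With scaling by the median of the probes detected on all arrays 0 sterol enzymes rose and 8 fell, and HMGCS1 (0.13, adjusted p = 0.164), SC5D (0.14, adjusted p = 0.303) and SQLE (0.20, adjusted p = 0.105) were not called.

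From day 3 to day 5 more sterol enzymes fell than rose in both arms, and few fatty acid enzymes were called between days 3 and 7. From day 3 to day 5 in NSB 9 of 15 sterol enzymes fell and 2 rose, where 36.8% of all genes changed, 18.5% up and 18.3% down, and 2 of 9 fatty acid enzymes fell and 0 rose, with medians of -0.38 and -0.15. In PIP 7 sterol enzymes fell and 3 rose, where 44.4% of all genes changed, 21.4% up and 23.0% down, and 2 fatty acid enzymes fell and 1 rose, with medians of -0.20 and -0.09. HSD17B7 was among the rises in each arm by its brightest probe, at 0.34 in NSB and 0.59 in PIP. Its other probe gave -0.02 ± 0.16 in NSB, not called, and -0.50 ± 0.16 in PIP, called lower. The IDI1 call in PIP ended in 17 of 30 fits that left out 1 array. From day 5 to day 7, 3 sterol enzymes rose and 3 fell in NSB, where 42.7% of all genes changed, 20.1% up and 22.6% down, and 1 rose and 4 fell in PIP, where 33.5% of all genes changed, 16.6% up and 16.9% down. Under median scaling over all probes 2 rose and 4 fell in NSB and 1 rose and 1 fell in PIP. The fatty acid enzymes had 0 rises and 1 fall in NSB and no call in PIP at this step, with medians of -0.08 and 0.03. IDI1 in NSB had its lowest level of the series at day 5, at 7.83, 7.90 and 7.97, and stood at 8.54, 8.89 and 8.95 at day 7.

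**Figure D4:**
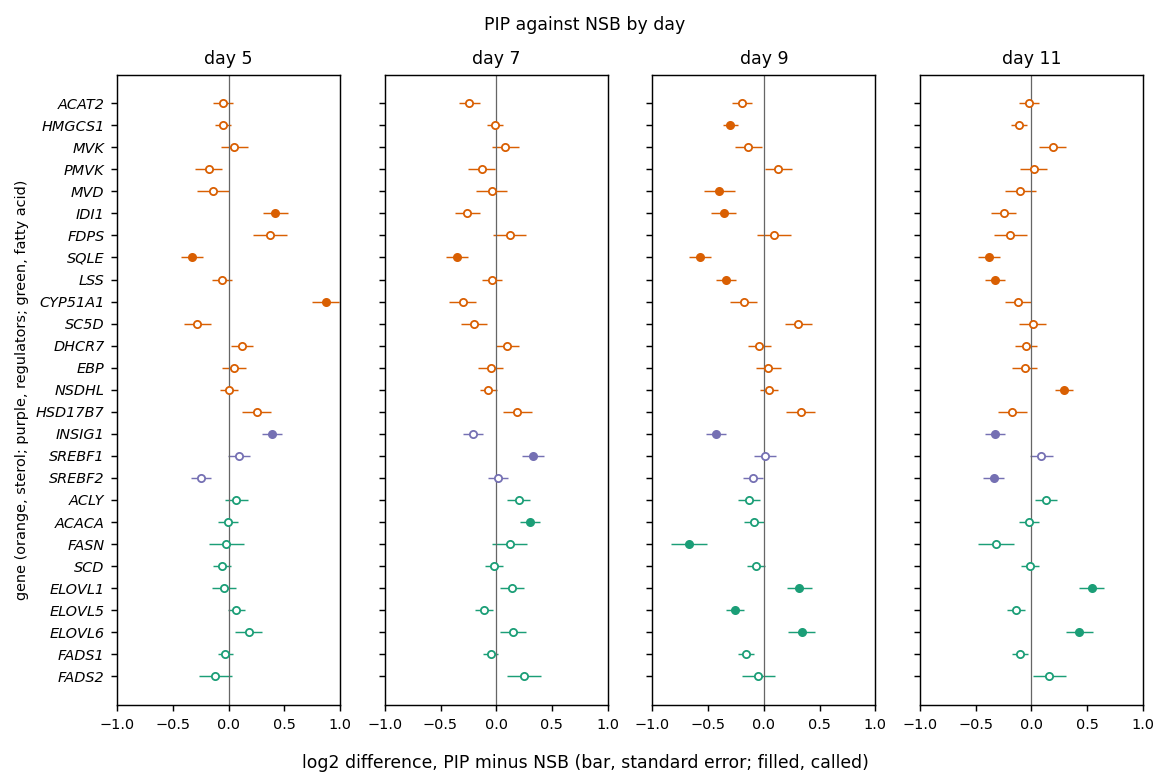
Log2 difference PIP minus NSB (points, filled where called, with the standard error of the limma fit as bars) of the 27 tested members at days 5, 7, 9 and 11. SQLE is called lower on all 4 days, though not at days 7 and 11 under median scaling over all probes, and CYP51A1 goes from 0.87 at day 5 to -0.12 at day 11.

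SQLE was called lower in PIP than in NSB on all 4 days, but under median scaling over all probes it was at -0.21 at day 7 (adjusted p = 0.548) and at 0.00 at day 11, neither called. At day 5, 3 members were higher and 1 lower in PIP, where 11.5% of all genes differed, 5.93% higher and 5.59% lower. CYP51A1 was at 8.60, 8.56 and 8.48 in PIP against 7.76, 7.77 and 7.52 in NSB, a gap with no overlap of 0.87 ± 0.12, 1.82-fold (adjusted p = 9.98e-06). IDI1 was at 8.47, 8.30 and 8.18 against 7.83, 7.90 and 7.97 (0.42 ± 0.11), and INSIG1 at 8.90, 8.89 and 9.05 against 8.49, 8.57 and 8.59 (0.39 ± 0.09). SQLE was at 8.08, 8.22 and 8.36 against 8.54, 8.47 and 8.63 (-0.33 ± 0.10, adjusted p = 0.0336). The 3 genes higher in PIP and SQLE showed no overlap between arms. Without PIP day 5 replicate 1 the IDI1 and SQLE calls ended (adjusted p = 0.104 and 0.179), and the other probe of INSIG1 gave -0.08 ± 0.12.

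At day 7, 2 members were higher and 1 lower in PIP, where 12.4% of all genes differed, 6.51% higher and 5.93% lower. SREBF1 was at 8.38, 8.54 and 8.57 against 8.27, 7.99 and 8.24 in NSB (0.33 ± 0.10), ACACA at 10.73, 10.68 and 10.73 against 10.58, 10.18 and 10.47 (0.30 ± 0.09), and SQLE at 8.38, 8.08 and 8.19 against 8.44, 8.77 and 8.48 (-0.35 ± 0.10). The arms did not overlap for these 3 genes, but each call ended without NSB day 7 replicate 2, PIP day 7 replicate 2 or PIP day 7 replicate 3 (adjusted p 0.0625 to 0.244). The other ACACA probe gave -0.22 ± 0.16, not called, and ACACA was not called under either median scaling or with the mean of its probes. The count of members called ran from 0 to 7 as single arrays were left out.

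At day 9, 2 members were higher and 8 lower in PIP, where 20.8% of all genes differed, 10.3% higher and 10.5% lower. The lower ones were 5 sterol enzymes (HMGCS1, MVD, IDI1, SQLE and LSS), INSIG1 and 2 fatty acid enzymes (FASN and ELOVL5), and ELOVL1 and ELOVL6 were higher. The other probes of LSS gave -0.23 ± 0.13 and 0.26 ± 0.12, neither called. FASN was at 11.19, 11.55 and 11.72 in PIP against 12.24, 12.01 and 12.22 in NSB (-0.67 ± 0.16, adjusted p = 2.09e-03), and SQLE at 8.63, 8.50 and 8.69 against 9.18, 9.10 and 9.25 (-0.57 ± 0.10, adjusted p = 8.65e-05). INSIG1 was at 9.42, 9.34 and 9.41 against 9.76, 9.75 and 9.97 (-0.43 ± 0.09), a difference that its other probe put at -0.27 ± 0.12 without a call. None of these 3 overlapped between arms. ELOVL6 was at 9.45, 9.68 and 9.43 against 9.12, 9.07 and 9.35 (0.34 ± 0.12) and ELOVL1 at 6.59, 6.75 and 6.86 against 6.51, 6.40 and 6.33 (0.32 ± 0.11), also without overlap. Leaving out single arrays ended the calls of MVD, IDI1, ELOVL1, ELOVL5 and ELOVL6, and MVD, at an adjusted p of 0.0460, lost its call in 19 of 30 such fits. Without PIP day 9 replicate 2 the count of members called was 5. ELOVL1 and ELOVL6 were not called under median scaling over all probes, at 0.27 and 0.20 (adjusted p = 0.173 and 0.506).

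At day 11, 3 members were higher and 4 lower in PIP, where 25.5% of all genes differed, 14.2% higher and 11.4% lower. ELOVL1 was at 6.53, 6.47 and 6.52 in PIP against 5.96, 5.85 and 6.12 in NSB (0.54 ± 0.11, adjusted p = 3.56e-04), ELOVL6 at 9.33, 9.05 and 9.17 against 8.75, 8.87 and 8.64 (0.43 ± 0.12) and NSDHL at 9.21, 9.40 and 9.39 against 9.00, 9.14 and 8.99 (0.29 ± 0.08). The arms did not overlap for these genes. SQLE was at 7.55, 7.33 and 7.53 against 8.01, 7.81 and 7.75 (-0.38 ± 0.10), and SREBF2 at 9.58, 9.82 and 9.71 against 10.27, 9.89 and 9.98 (-0.34 ± 0.09), again with no overlap. INSIG1 and LSS were lower by 0.33 each, INSIG1 at 8.29, 8.39 and 8.56 against 8.84, 8.74 and 8.63, and LSS at 8.74, 8.84 and 8.87 against 9.36, 8.96 and 9.12. Their other probes were not called, at 0.09 ± 0.12 for INSIG1 and -0.18 ± 0.13 and -0.11 ± 0.12 for LSS. The calls of LSS, INSIG1 and SREBF2 ended without NSB day 11 replicate 1 (adjusted p 0.0572 to 0.0685). Median scaling over all probes, which shifted the median of all genes by 0.28, put SQLE, LSS, INSIG1 and SREBF2 at 0.00 to 0.07, so the lower values of these 4 in PIP rest on the scaling.

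The difference between arms itself changed from day 5 to day 11 for 4 members, by a test of that change, where it changed for 19.9% of all genes, 11.5% up and 8.47% down. CYP51A1 went from 0.87 higher in PIP to a difference of -0.12, a change of -0.99 ± 0.17 (adjusted p = 6.00e-05). IDI1 changed by -0.67 ± 0.16, INSIG1 by -0.72 ± 0.13 and ELOVL1 by 0.58 ± 0.15 (adjusted p = 3.00e-03, 1.87e-04 and 7.23e-03). Each held when any 1 array was left out. Under median scaling over all probes, which shifted the median of all genes by 0.45, CYP51A1, IDI1 and INSIG1 were at -0.42, -0.10 and -0.11 and were not called. ELOVL1 was not called under median scaling over the probes detected on all arrays (0.37, adjusted p = 0.109). INSIG1 was not called with the mean of its probes (-0.28, adjusted p = 0.159), and on its other probe the change was 0.17 ± 0.17.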

How the data were processed

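Total RNA of 30 samples was measured on Illumina bead arrays. The deposited table holds, for each array and 48701 probes, the average bead intensity before normalization, a detection p-value per the file headers, and the count of beads behind it (array medians of 37 to 40). GenomeStudio is named in the submitters' processing notes, with no version. A second deposited table of processed intensity values, 35.1% of them below 0, served as an alternative. Groups were taken from the labels. The function neqc of limma 3.58.1 (R 4.3.3) corrected the background of all 30 arrays, applied quantile normalization and took log2 values. It estimated background from the detection p-values and added an offset of 16. Of 48701 probes 23687 had 1 gene name, and 21500 probes of all were detected at p under 0.05 on at least 3 arrays, and the brightest probe stood for each of 13488 genes. A linear model of the 10 group means (20 residual degrees of freedom) was fitted with lmFit and eBayes, and p-values were adjusted by Benjamini-Hochberg within each of 16 comparisons. The fit was tested on simulated data. No pair of arrays was identical.

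The members and lists were chosen with earlier results of these data known. By the naming rule, array values are given for the 3 members with the largest called rise and the 3 with the largest called fall between day 3 and day 1, between day 11 and day 3 in each arm, and between arms on each day, and genes that are no members are named where called with a log2 difference of at least 1 in these comparisons. The members whose array values are given for days 7 to 11, MSMO1 and the promoters printed were chosen after their values were seen. Replicate numbers did not mark pairs: residuals of arrays sharing a number correlated at -0.009 and those of others at 0.005. P-values measure the spread between these arrays. Alternatives were median scaling, no background correction, other filters, the mean of a gene's probes, the deposited processed values, a replicate block, fits of only the groups compared, and leaving out each array. Bounds for probes not detected in a group set the bright group's mean against the lowest detected signal. Sequences came from RefSeq promoter windows (GRCh38.p14).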

Additional observations from a re-analysis of the deposited data

Results flagged for a closer look

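For 4 of the 27 tested members the difference between PIP and NSB was itself different at day 11 from day 5, by an interaction term in the limma fit. The same held for 19.9% of all genes, so the count does not set the members apart. The change was -0.99 for CYP51A1, -0.67 for IDI1, -0.72 for INSIG1 and 0.58 for ELOVL1, on the log2 scale. The first 3 were higher in PIP at day 5, and ELOVL1 was higher in PIP at day 11. Under median scaling over all probes the first 3 were not called, ELOVL1 was not called under median scaling over the probes detected on all arrays (0.37, adjusted p = 0.109, limma), and INSIG1 was not called with the mean of its probes (-0.28, adjusted p = 0.159, limma).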

How the results depend on the processing

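Each of the 200 calls of a member in a comparison kept its direction without background correction, with no filter on dim probes, with the deposited processed values, with the replicate block and in fits of only the groups compared, as did the 194 calls that the probes detected on all 30 arrays could give (MVK, with 6 calls, has no such probe). Median scaling over all probes kept 140 calls, lost 48 and turned 12, and it moved the median of all genes by -0.43 in NSB and -0.16 in PIP between day 3 and day 11, by -0.33 in NSB from day 9 to day 11 and by 0.28 between arms at day 11. The share of called genes that were higher moved from 53.3% to 78.9% at day 3 against day 1, from 48.2% to 63% and 48.4% to 33.9% at day 9 in NSB and PIP, from 48% to 12.4% at day 11 against day 9 in NSB, from 47.4% to 17.8% and 48.7% to 32.6% against day 3, and between arms from 51.5% to 15.1%, 52.3% to 81.9%, 49.5% to 37.8% and 55.5% to 94.3% at days 5, 7, 9 and 11, and it moved from 47% to 18.9% and 49.5% to 64.1% from day 5 to 7 in NSB and PIP, from 48.2% to 22.7% at PIP day 5, and from 57.5% to 97.1% for the change between arms. Scaling over the probes detected on all arrays moved it the other way, to 36.4% at day 3 against day 1, to 59.1%, 64.6% and 62% in NSB at day 7 against 5, day 11 against 9 and day 11 against 3, between arms to 62.9%, 39.3% and 34.6% at days 5, 7 and 11, and to 31% for the change. The values turned by median scaling over all probes were -0.31 for ACACA and -0.30 for ELOVL5 (NSB day 11 against day 9), -0.01 for ELOVL5 (PIP day 5 against day 3), -0.09 for CYP51A1, -0.19 for PMVK and -0.40 for FADS1 (NSB day 11 against day 3), -0.12 for FADS1 (PIP), 0.05 for SREBF1 (day 3 against day 1), and 0.07 for INSIG1, 0.05 for LSS, 0.04 for SREBF2 and 0.00 for SQLE between arms at day 11. With the same scaling 14 members, each higher, were called for the change between arms, 1 between arms at day 7, 3 from day 5 to 7 in PIP and 10 from day 7 to 9 in PIP. The mean of a gene's probes turned ACACA (-0.07) and HSD17B7 (-0.15) in NSB day 11 against day 9, HSD17B7 against day 3 (-0.07 in NSB and -0.08 in PIP), INSIG1 at day 3 (-0.04) and LSS from day 5 to 7 in PIP (0.01). Fits of only the groups compared called 0 members between arms at day 7 (3 at an unadjusted p under 0.05 in limma), 6 at day 9 and 3 at day 11. The cause of these shifts was not tested.

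The sterol minus fatty acid difference of medians was 0.45 in NSB and 0.63 in PIP from day 7 to day 9, and stayed at 0.40 to 0.48 and 0.50 to 0.68 without single arrays. For NSB day 11 against day 3 it was -0.17, but 0.06 under both median scalings and without background correction, -0.01 with probes detected on all 30 arrays and 0.16 with the mean of probes. For NSB day 11 against day 9 it was -0.03, against -0.31 under both median scalings and 0.12 with the mean of probes, and from day 5 to 7 in NSB 0.06 against -0.02 with the mean of probes. Leaving out single arrays gave -0.22 to -0.03 for the change between arms, -0.19 to -0.02 for NSB day 11 against day 3, -0.17 to 0.01 against day 9, -0.30 to -0.15 for NSB day 5 against day 3, -0.32 to -0.15 for PIP day 11 against day 3, -0.20 to -0.13 for PIP day 7 against day 5, and between arms -0.05 to 0.04, -0.21 to -0.12 and -0.19 to -0.02 at days 5, 7 and 11. The members called then numbered 2 to 5 between arms at day 5, 0 to 7 at day 7 (4 past an unadjusted p of 0.05 where none was called), 5 to 12 at day 9, and 4 to 8 for PIP day 7 against day 5.

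With the replicate block the calls of EBP at day 3 (-0.26, adjusted p = 0.052), SREBF1 at NSB day 5 (-0.25, adjusted p = 0.0511) and ACACA in NSB day 11 against day 9 (0.23, adjusted p = 0.0507) were lost in limma, and no other. Arrays of a group number 3, and dim probes such as MVK at day 11 in NSB lie close to background, where differences come out too small.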

Other observations

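Genes beside the members, from lists of the same pathways, also changed. MSMO1, a sterol enzyme that is no member, rose from day 7 to day 9 by 0.34 in NSB and 0.27 in PIP and fell to day 11 by 0.71 and 0.75. Of 7 other sterol synthesis genes, however, 1 rose and 3 fell from day 7 to day 9 in NSB and 1 rose and 4 fell in PIP, with medians of -0.15 and -0.25, where 23.0% of all genes rose and 24.7% fell in NSB and 22.5% and 23.9% in PIP. Of 7 genes of the sterol-sensing LXR receptors and sterol efflux, 0 rose and 6 fell from day 3 to day 11 in NSB and 0 rose and 4 fell in PIP, with medians of -0.68 and -0.45, where 31.3% of all genes rose and 34.7% fell in NSB and 30.4% and 32% in PIP. MYLIP, a ubiquitin ligase gene, fell by 2.09 and 1.47. LPCAT3, a target of these receptors, fell by 1.26 and 1.12, and ACAT1, the mitochondrial thiolase, by 1.25 and 1.37. MYLIP was 1.00 higher in PIP than in NSB at day 9. Between day 1 and day 3 ABCA1, the sterol efflux pump, had risen by 2.18, MYLIP by 1.16, TM7SF2, a sterol reductase, by 1.5 and ACSS2, a cytosolic acetyl-CoA synthetase, by 1.51, while ACSL1, a fatty acid activating enzyme, fell by 1.2. CYP46A1, the cholesterol hydroxylase of neurons, was at least 2.14-fold higher at day 3 (adjusted p = 6.95e-09, limma).

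Of 13 fatty acid oxidation genes, 8 rose and 1 fell from day 1 to day 3, where 29.0% of all genes rose and 25.4% fell, and from day 3 to day 11 2 rose and 8 fell in NSB and 1 rose and 7 fell in PIP. CPT1A, which admits fatty acids to mitochondria, was at least 3.06-fold lower at day 11 in NSB and at least 3.2-fold lower in PIP than at day 3 (adjusted p = 2.61e-18 and 3.43e-17, limma). ELOVL2, an elongase of polyunsaturated fatty acids, was at least 2.01-fold higher in NSB and at least 1.99-fold higher in PIP (adjusted p = 4.82e-12 and 7.00e-12). ME1, which makes NADPH, fell by 1.79 in NSB and 1.3 in PIP on the log2 scale, and SLC25A1, the mitochondrial citrate carrier, by 1.39 and 1.35. ETFB, a subunit of the electron carrier of oxidation, fell by 1.34 and 1.19, and ACAA2 fell by 1.18 in NSB. LPIN1, a phosphatidate phosphatase, rose by 1.15 and 1.56. ACSL1 was at least 1.73-fold lower at day 11 in NSB (adjusted p = 4.96e-10).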
